A study of Mus musculus with 6 samples.

Results

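The genes described here are 10 regulators that restrain MAP kinase signalling, the phosphatase genes Dusp1, Dusp3, Dusp4, Dusp5, Dusp6, Dusp7, Dusp10 and Dusp16 and the feedback genes Spry2 and Spred1. They were taken by symbol from the deposited expression table, where each symbol matched 1 of 55487 gene rows. Transcripts were sequenced in M2-polarized mouse macrophages, with 3 libraries from cells given nanoparticles (NP) and 3 libraries from cells given PBS as the vehicle. All cells came from bone marrow of wild-type female BALB/c mice aged 6 to 12 weeks. The marrow was grown for 8 days in medium containing 20% conditioned medium of L929 fibroblasts, a line that secretes M-CSF. Both groups were then polarized with IL-4 and IL-13, each at 10 ng/mL, for 24 hours. The NP cells next received 200 µg/mL of particles for 24 hours, which the series title gives as poly(lactide-co-glycolide), while the treatment label of these cells reads PEMA, a name that no label spells out. The labels do not say whether the libraries of a group came from separate mice or cultures, and p-values reflect just the scatter of these 6 libraries, which could be technical.

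MAP kinases (ERK, p38 and JNK) are activated by phosphorylation on a threonine and a tyrosine, and dual-specificity phosphatases remove both phosphates. In macrophages ERK is activated by the M-CSF receptor and all of these kinases are activated by Toll-like receptors. Many of the phosphatases, like Sprouty and SPRED proteins, which act upstream at RAS and RAF, are themselves transcribed in response to the pathway they restrain. A transcript level is not a measure of kinase activity, and phosphorylation was not measured here.

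Of the 10 genes, 4 were higher in NP than in PBS macrophages (Dusp5, Spry2, Dusp10 and Dusp16), 3 were lower (Dusp6, Spred1 and Dusp7) and 3 did not pass the test (Dusp1, Dusp3 and Dusp4). The test was limma voom with Benjamini-Hochberg adjustment over 14478 genes, and a gene was called at an adjusted p under 0.05. The calls therefore covered 7 of 10 genes, beside 41.2% of all genes tested in either direction, 19.8% higher and 21.4% lower. The 3 NP libraries lay wholly above the 3 PBS libraries for 5 of the 10 genes, beside 26.5% of all genes tested. They lay wholly below for 3 of the 10, beside 26.8% of all genes. The 5 include Dusp3, which was not called and whose groups overlapped in levels per exonic length. The median log2 fold change of the 10 genes was 0.06, beside -0.00348 over all genes. None of the 10 differed by 2-fold or more, whereas 195 of all genes tested were called higher and 387 lower by at least that much.

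Libraries held 41974957 to 69450411 counts, with all NP libraries deeper than the PBS ones, and 3 counts equalled 0.0432 to 0.0715 CPM (counts scaled for library depth). All 10 genes lay far above that level. PBS 2 and PBS 3 stood apart from the other libraries by transcripts of olfactory and vomeronasal receptor genes, which summed to 9.70, 10.3 and 11.9 CPM in NP 1 to 3, against 12.5, 138 and 153 CPM in PBS 1 to 3. Where a call ended once PBS 1 alone stood for the vehicle, that is given beside it. That fit kept 1 PBS library and 2 residual degrees of freedom, against 4 in the main fit. A call lost in it need not mean a smaller difference. The macrophage markers summed to 9800.2 to 10852 CPM in NP libraries and 12166 to 12483 CPM in PBS libraries, with 8 of 10 lower and 1 higher in NP. Of 7 tested M2 markers 5 were lower, summing to 986 to 1140 CPM in NP libraries against 1933 to 2233 CPM in PBS libraries. Of 6 tested osteoclast markers 3 were higher and 1 was lower, summing to 1226 to 1463 CPM against 848 to 970 CPM in PBS libraries, with Calcr at 0 counts. Marker lists of neutrophils, T cells, B cells, fibroblasts, dendritic cells, mast cells and basophils, and erythroid cells each summed to under 4 CPM in every library, with Ly6g, Camp, Cpa3, Mcpt8, Fcer1a, Ms4a2 and Hbb-bs at 0 counts throughout. The part of these shifts in the results below was not tested, and in bulk RNA fewer cells of a type and less RNA per cell cannot be told apart.

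Set beside each other per exonic length, in TPM (a length-normalised level) computed from the deposited counts, the phosphatase transcripts differed widely in level. Dusp4, a nuclear phosphatase, was the most abundant at 280.5 ± 19.0 TPM in NP and 293 ± 8.01 TPM in PBS macrophages (SD, n = 3 each, as in all means here). Dusp3, a small atypical phosphatase known as VHR, followed at 205 ± 2.24 TPM in NP and 204.5 ± 1.79 TPM in PBS. In PBS macrophages Dusp1, Dusp6 and Spred1 came next at 67.2 ± 6.77, 65.2 ± 3.70 and 63.6 ± 1.82 TPM, and their libraries overlapped. In NP macrophages Dusp1, at 70.1 ± 3.57 TPM, lay above Spred1 at 48.5 ± 2.84, Dusp6 at 43.4 ± 6.08 and Dusp7 at 41.8 ± 2.66 TPM in every library. Dusp6 overlapped both Spred1 and Dusp7 in NP, whereas in PBS Dusp7 lay below both at 48.2 ± 0.609 TPM. Dusp16 and Dusp10 overlapped each other in both groups, at 16.2 ± 1.64 and 14.6 ± 1.17 TPM in NP and at 13.5 ± 0.481 and 11.6 ± 1.31 TPM in PBS. Spry2 had 12.5 ± 0.565 TPM in NP and 8.84 ± 1.06 TPM in PBS. Dusp5 was lowest in both groups, at 7.02 ± 0.589 TPM in NP and 4.02 ± 0.0934 TPM in PBS.

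**Figure D1:**
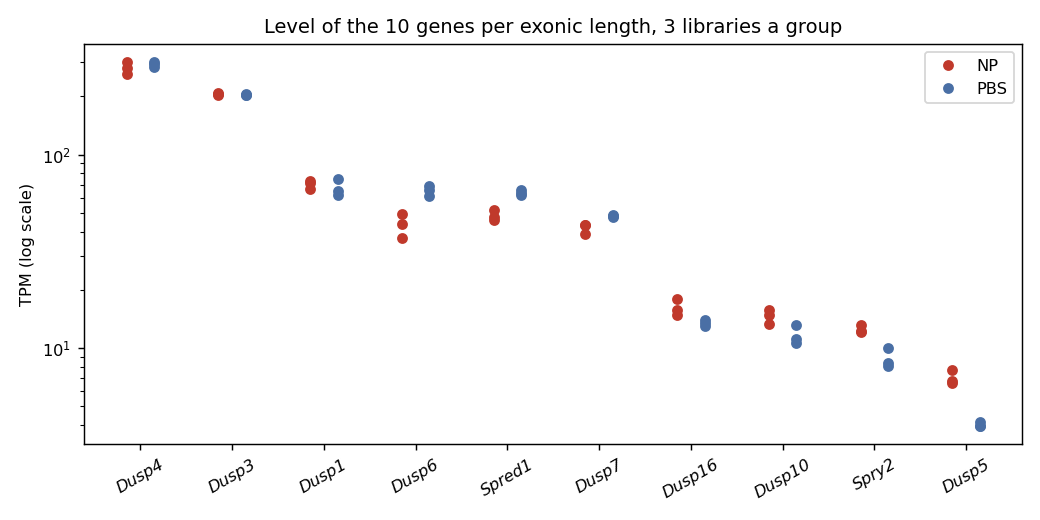
Level of each of the 10 genes in TPM on a log axis, 1 point per library, with NP left of PBS. Dusp4 (280.5 TPM in NP and 293 TPM in PBS on average) and Dusp3 stand above the rest, and the NP points of Dusp6 and Spred1 lie below their PBS points while those of Dusp5 and Spry2 lie above theirs.

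Among the nuclear phosphatases that ERK signalling induces, Dusp5 was higher in NP macrophages, while Dusp1 and Dusp4 were not shown to differ. DUSP5 is specific for ERK and holds it in the nucleus. Dusp5 had 4.94, 5.75 and 4.98 CPM in NP libraries, against 2.86, 2.88 and 3.04 CPM in PBS libraries. Every NP library lay above every PBS library, with NP 2 the highest. The log2 fold change was 0.83 (SE 0.10, 95% interval 0.59 to 1.06, limma voom adjusted p = 0.000281), or 1.77-fold, above that of 97.7% of all genes tested. The gene lies at chr19:53529109-53542431 on the plus strand of GRCm38, in 4 merged exons of 2473 bases. An annotated antisense transcript, AC137853.2, shares 547 exonic bases with it and held 0 to 11 counts per library, and without a stated strand setting the reads of such pairs cannot be told apart.

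Dusp1, the phosphatase MKP-1 and an immediate early gene of stimulated macrophages, had 72.7, 66.0 and 70.5 CPM in NP libraries, against 59.7, 63.4 and 73.7 CPM in PBS libraries. PBS 3 held the highest value of all 6 and the groups overlapped. The log2 fold change was 0.09 (SE 0.07, 95% interval -0.07 to 0.25, adjusted p = 0.322). Without PBS 3 it was 0.18 with an adjusted p of 0.0238, and over all 16 alternatives the adjusted p ran from 0.0238 to 0.678. The gene lies at chr17:26505590-26562128 on the minus strand, and its exons share 11 bases with Ergic1 on the other strand. Dusp4, or MKP-2, had 249, 217 and 228 CPM in NP libraries, against 235, 229 and 245 CPM in PBS libraries. NP 1 was the highest and NP 2 the lowest of all 6, so the groups overlapped. Its log2 fold change was -0.03 (SE 0.05, 95% interval -0.15 to 0.08, adjusted p = 0.617).

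Dusp5 and Dusp1 are textbook targets of signal-regulated transcription factors, and their promoters are shown with that of Dusp6, which moved the other way from Dusp5. The windows span 250 bases before to 50 bases after the RefSeq start on GRCm38.p6, at chr19:53528895-53529194 on the plus strand for Dusp5, chr17:26508423-26508722 on the minus strand for Dusp1 and chr10:99262981-99263280 on the plus strand for Dusp6. Capitals mark matches on either strand to the serum response element by its name, the cAMP response element TGACGTCA, its core TGACG (a full element holds 2 overlapping cores) and the AP-1 motif TGANTCA.
Dusp5: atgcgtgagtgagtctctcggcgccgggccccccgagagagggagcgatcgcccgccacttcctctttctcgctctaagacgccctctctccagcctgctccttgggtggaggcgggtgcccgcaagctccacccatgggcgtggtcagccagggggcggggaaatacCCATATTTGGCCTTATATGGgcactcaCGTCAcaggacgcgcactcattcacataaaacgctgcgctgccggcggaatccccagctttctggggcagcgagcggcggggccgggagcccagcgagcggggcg
Dusp1: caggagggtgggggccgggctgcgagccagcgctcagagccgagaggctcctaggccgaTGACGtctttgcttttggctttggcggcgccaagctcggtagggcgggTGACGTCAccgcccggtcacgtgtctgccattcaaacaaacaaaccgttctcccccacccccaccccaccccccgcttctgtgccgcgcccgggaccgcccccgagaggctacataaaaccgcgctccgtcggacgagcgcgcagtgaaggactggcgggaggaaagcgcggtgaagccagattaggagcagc
Dusp6: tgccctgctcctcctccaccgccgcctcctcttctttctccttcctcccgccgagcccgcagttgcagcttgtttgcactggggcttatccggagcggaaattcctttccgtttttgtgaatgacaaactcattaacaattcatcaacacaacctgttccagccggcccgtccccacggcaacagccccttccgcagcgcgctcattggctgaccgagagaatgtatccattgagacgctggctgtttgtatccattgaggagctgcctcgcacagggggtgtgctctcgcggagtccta
The Dusp5 window held 2 adjoining serum response elements, at -82 to -73 and at -72 to -63 from the start, and 1 cAMP core at -55 to -51. The Dusp1 window held 1 full cAMP element at -143 to -136 and 1 further core at -191 to -187. The Dusp6 window held no match to any of these motifs, which says only that these letters are not in it. Of 9 genes with an entry, Dusp16 alone held another match, a cAMP core at -70 to -66. The windows of Spry2 and Dusp10, called higher like Dusp5, held none of these motifs. Dusp1, with its full cAMP element, was not called. Over 32851 promoters of the same length, 1.63% held a serum response element, 1.79% a full cAMP element, 20.8% a core and 7.81% the AP-1 motif. Base composition also differed from the median of 52.7% G and C over all promoters, at 66.7% for Dusp5, 67.0% for Dusp1 and 57.3% for Dusp6. A match is a description of letters, and binding was not measured.

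Both cytoplasmic, ERK-specific phosphatases among the 10 genes were lower in NP macrophages. DUSP6, or MKP-3, binds ERK in the cytoplasm, and its gene is a standard reporter of ERK output. Dusp6 had 35.3, 46.7 and 40.5 CPM in NP libraries, against 62.7, 56.3 and 61.4 CPM in PBS libraries. Every NP library lay below every PBS library, and NP 2 and PBS 2 lay nearest to each other. The log2 fold change was -0.57 (SE 0.09, 95% interval -0.77 to -0.38, adjusted p = 0.000772), or 0.672-fold, and 8.43% of all genes tested had a lower one. NP 2 and PBS 2 carry library numbers 12 and 13, apart from numbers 4 to 8 of the other libraries, and between that pair alone the log2 difference was -0.27. Without that pair the log2 fold change was -0.72 (adjusted p = 1.66e-05), and over the 16 alternatives the adjusted p ran from 1.66e-05 to 0.0207. The gene lies at chr10:99263231-99267489 on the plus strand, in 4 merged exons of 3132 bases.

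Dusp7, also called MKP-X, had 39.3, 43.9 and 43.1 CPM in NP libraries, against 47.9, 47.1 and 47.9 CPM in PBS libraries. The groups did not overlap and NP 1 was the lowest. Its log2 fold change was -0.18 (SE 0.05, 95% interval -0.28 to -0.08, adjusted p = 0.0111), or 0.882-fold. Without NP 1 the log2 fold change was -0.12 (adjusted p = 0.0299). The call was lost without PBS 1 (adjusted p = 0.0562), with PBS 1 alone as vehicle (0.119) and without the low-count filter (0.0734), and over the 16 alternatives the adjusted p ran from 0.00463 to 0.119.

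**Figure D2:**
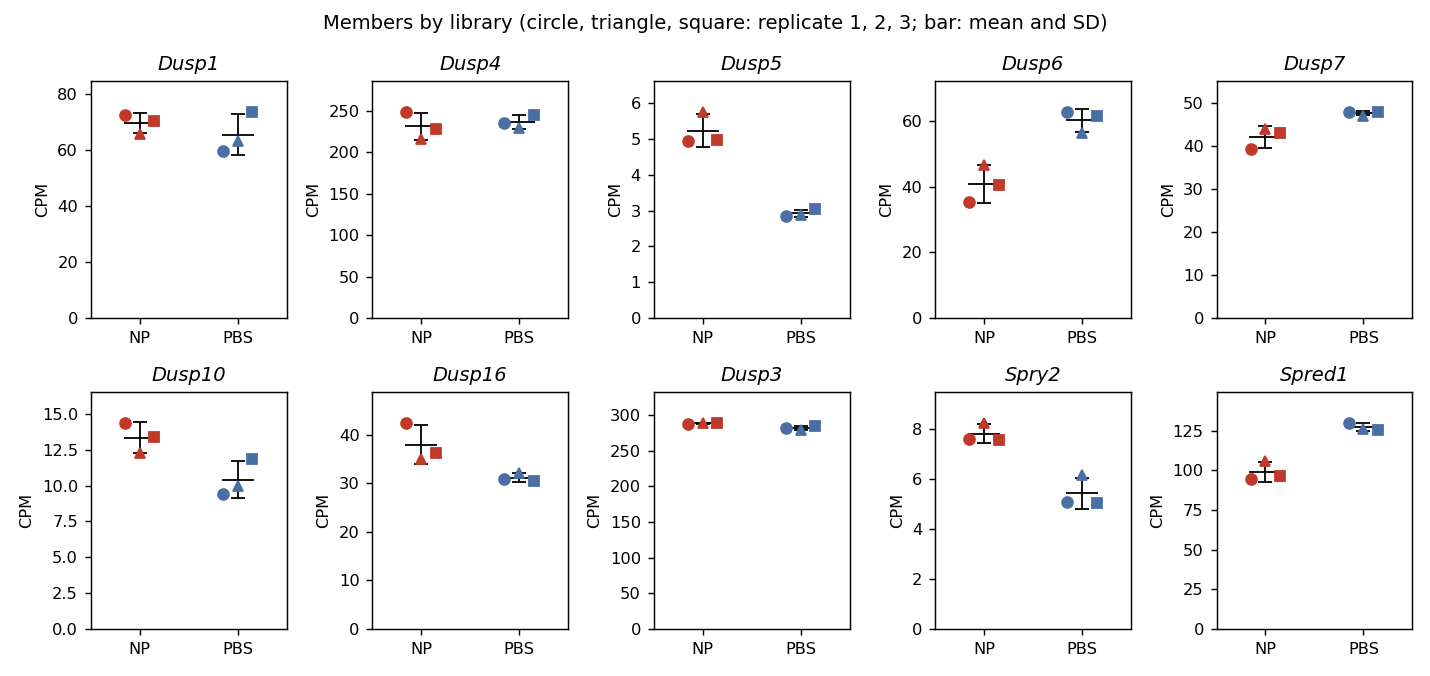
CPM of each of the 10 genes in each library, 1 panel per gene with its own axis, NP left of PBS, points for libraries and bars for the group mean and SD. NP and PBS points overlap for Dusp1 and Dusp4 and are apart for the other 8 genes, of which Dusp3 was not called. The Dusp6 mean was 40.9 ± 5.73 CPM in NP against 60.2 ± 3.37 CPM in PBS.

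Dusp10 and Dusp16, whose products prefer JNK and p38, were both higher in NP macrophages. Dusp10, or MKP-5, had 14.4, 12.2 and 13.4 CPM in NP libraries, against 9.41, 9.99 and 11.9 CPM in PBS libraries. The groups did not overlap, but NP 2 and PBS 3 lay close together. The log2 fold change was 0.37 (SE 0.09, 95% interval 0.16 to 0.58, adjusted p = 0.0118), or 1.29-fold. The call was lost without NP 1 (adjusted p = 0.0544) and without NP 3 (0.0595), and over the 16 alternatives the adjusted p ran from 0.00224 to 0.0595. Dusp16, or MKP-7, had 42.5, 34.9 and 36.2 CPM in NP libraries, against 30.8, 32.2 and 30.4 CPM in PBS libraries. Every NP library lay above every PBS library, with NP 1 the highest. Its log2 fold change was 0.28 (SE 0.07, 95% interval 0.12 to 0.44, adjusted p = 0.0106), or 1.22-fold. With PBS 1 alone as vehicle the log2 fold change was 0.29 but its adjusted p was 0.122, the highest of the 16 alternatives, whose lowest was 0.00337.

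Dusp3, whose product can act on ERK and JNK, had 288, 289.6 and 289 CPM in NP libraries, against 283, 279.7 and 284 CPM in PBS libraries. In CPM the groups did not overlap, yet they differed by a log2 fold change of only 0.03 (SE 0.03, 95% interval -0.03 to 0.10, adjusted p = 0.36). In TPM they overlapped, at 203.2, 204.8 and 207.6 in NP libraries against 206.6, 203.2 and 203.8 in PBS libraries. With library totals alone as the scaling the log2 fold change was -0.00084, so its direction was not settled. An antisense transcript, Gm20659, shares 604 exonic bases with Dusp3 and held 0 to 2 counts per library.

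The 2 feedback genes that act upstream, at RAS and RAF, moved in opposite directions. Spry2 encodes Sprouty 2, an ERK-induced inhibitor of receptor tyrosine kinase signalling. Spry2 had 7.62, 8.27 and 7.59 CPM in NP libraries, against 5.09, 6.17 and 5.05 CPM in PBS libraries. Every NP library lay above every PBS library, and NP 2 and PBS 2 were each the highest of their group. The log2 fold change was 0.54 (SE 0.09, 95% interval 0.34 to 0.74, adjusted p = 0.00129), or 1.46-fold, above that of 95.1% of all genes tested. Spred1 encodes a membrane protein that recruits the RAS inactivator neurofibromin. Spred1 had 94.7, 106 and 96.3 CPM in NP libraries, against 130.1, 126 and 125 CPM in PBS libraries. Every NP library lay below every PBS library. The log2 fold change was -0.36 (SE 0.04, 95% interval -0.46 to -0.26, adjusted p = 0.000228), or 0.777-fold. Per 100 CPM of Spred1, Spry2 had 8.04, 7.81 and 7.88 CPM in NP libraries, against 3.91, 4.90 and 4.02 CPM in PBS libraries. These ratios varied little within NP. That they did not overlap follows from the values of the 2 genes, which were each apart and in opposite directions. Spry2 lies at chr14:105891947-105896819 on the minus strand and Spred1 at chr2:117121374-117182279 on the plus strand.

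The same kind of ratio within a library was taken among phosphatases. Per 100 CPM of Dusp6, Dusp5 had 14.0, 12.3 and 12.3 CPM in NP libraries, against 4.56, 5.12 and 4.95 CPM in PBS libraries. Per 100 CPM of Dusp6, Dusp4 had 704, 463 and 563 CPM in NP libraries, against 374, 407 and 399 CPM in PBS libraries. Neither ratio overlapped between groups, which for Dusp5 to Dusp6 follows from the separate values of both genes. Dusp4 itself overlapped between groups and was not called, so its ratio mainly restates the lower Dusp6. The Dusp4 ratio varied most in NP. The summed level of the 8 phosphatase genes was 692, 661 and 683 TPM in NP libraries, against 707, 691 and 723 TPM in PBS libraries, and the groups overlapped. Dusp6 made up 6.41% ± 1.05 of that sum in NP and 9.22% ± 0.43 in PBS, and Dusp5 made up 1.04% ± 0.112 in NP and 0.568% ± 0.00731 in PBS. Dusp4 made up 41.3% ± 1.89 in NP and 41.4% ± 0.201 in PBS, so the most abundant transcripts, which were not called, set most of the sum.

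The MAP kinase phosphatases proper, which leave out the atypical Dusp3 and add Dusp2, Dusp8 and Dusp9, are a family of 10, of which 5 were higher, 2 lower and 3 not called, beside 19.8% of all genes tested higher and 21.4% lower. By class, 2 of 4 nuclear inducible genes were higher and none lower, 1 of 3 cytoplasmic ERK phosphatases was higher and 2 lower, and 2 of 3 JNK and p38 phosphatases were higher and none lower, counts too small to set against those shares. Dusp9, the third cytoplasmic ERK phosphatase, had 6.49, 7.06 and 6.58 CPM in NP libraries, against 3.16, 3.45 and 3.47 CPM in PBS libraries. It thus moved opposite to Dusp6 and Dusp7, with a log2 fold change of 1.00 (SE 0.09, adjusted p = 4.66e-05). Dusp2, or PAC-1, a nuclear phosphatase of immune cells, averaged 4.52 ± 0.627 CPM in NP and 3.19 ± 0.285 CPM in PBS, with a log2 fold change of 0.50 (adjusted p = 0.0126). With PBS 1 alone as vehicle its adjusted p was 0.139, and the lowest over the alternatives was 0.00460. Dusp8 had a log2 fold change of 0.10 (95% interval -0.08 to 0.27, adjusted p = 0.357).

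**Figure D3:**
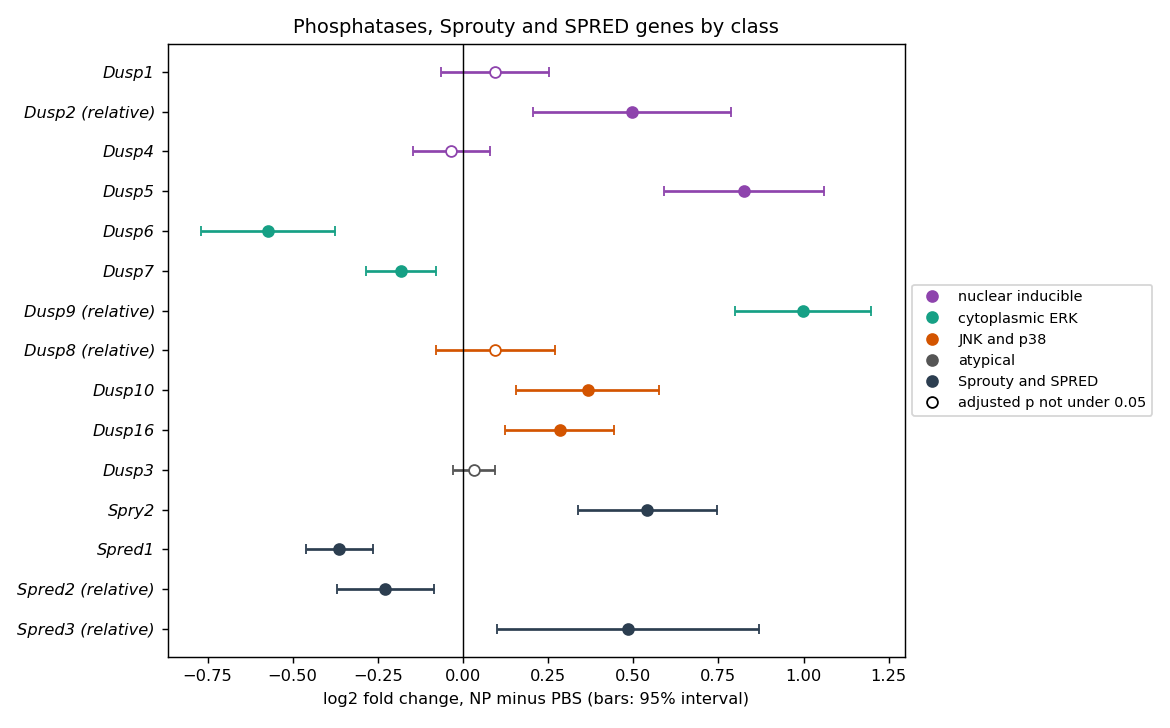
Log2 fold change of NP minus PBS with its 95% interval for the 10 genes and 5 relatives, coloured by class, with open points for genes whose adjusted p was not under 0.05. Within the cytoplasmic ERK class Dusp6 (-0.57) and Dusp7 (-0.18) lie left of 0 and Dusp9 (1.00) lies right of it, and Spry2 (0.54) lies opposite to Spred1 (-0.36).

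Other genes of the pathways were read from 6 lists, together 125 genes, of which 110 were tested. Of these, 21 were higher and 34 lower in NP macrophages, beside 19.8% and 21.4% of all genes tested. Those shares also stand beside the counts of each list below. In either direction 50% of the list genes were called, beside 41.2% of all genes, and their median log2 fold change was -0.02. With PBS 1 alone as vehicle 34 of them were called, and without NP 3 the number was 36.

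In the ERK cascade itself 3 of 21 genes were higher and 3 lower; the list's median was -0.00101 on the log2 scale. With library totals alone as the scaling, 2 were higher and 4 lower. Mapk3, the ERK1 gene, was not called, with a log2 95% interval of -0.01 to 0.11, nor was the MEK gene Map2k1, with -0.09 to 0.06. The kinase gene Braf averaged 80.7 ± 3.65 CPM in NP and 63.1 ± 0.321 CPM in PBS (log2 fold change 0.35, adjusted p = 0.000127). The other MEK gene, Map2k2, was higher (0.20, adjusted p = 0.00411), and Rps6ka1, the ERK-activated kinase RSK1, was lower (-0.35, adjusted p = 0.000666).

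Among p38 and JNK cascade genes, 1 of 18 was higher and 8 were lower, and the median log2 fold change was -0.08. The number lower was 3 without NP 3, 4 without NP 1, 5 without PBS 3 and 1 with PBS 1 alone as vehicle. With library totals alone as the scaling 0 were higher and 9 lower, and with median-of-ratios factors 2 and 7. The single gene higher became 0 without PBS 2, PBS 3, NP 1 or NP 3 and 2 without PBS 1 or NP 2. Map3k5, the stress-activated kinase ASK1, averaged 18.9 ± 1.71 CPM in NP and 25.8 ± 1.20 CPM in PBS (log2 fold change -0.45, adjusted p = 0.000771). Mapk14, the main p38 kinase, averaged 102 ± 7.70 CPM in NP and 120.5 ± 2.98 CPM in PBS (-0.24, adjusted p = 0.00503). Mapk8, or JNK1, and Map3k7, or TAK1, had log2 fold changes of -0.19 (adjusted p = 0.0135) and -0.10 (adjusted p = 0.0159). With PBS 1 alone as vehicle, the calls of Mapk14, Mapk8 and Map3k7 were lost, with log2 fold changes of -0.28, -0.18 and -0.10. Their lowest adjusted p over the alternatives was 0.000459, 0.00674 and 0.00340, in that order. Mapk8 was also lost without NP 1 and without NP 3, and Map3k7 without PBS 1, without NP 3 and without the pair NP 2 and PBS 2 (adjusted p = 0.0678). Without the low-count filter both were lost as well, Mapk8 at an adjusted p of 0.0804 and Map3k7 at 0.126.

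In the list of immediate early and ERK-induced genes, 4 of 25 were higher and 9 lower, and the list's median was -0.12 on the log2 scale. The list also includes the transcription factor genes Srf (counted as higher), Elk1 (counted as lower), Elk3 and Elk4. Not every gene in it is thus an ERK-induced one. The number higher was 1 without NP 3, 2 without PBS 1 or PBS 2, and 2 with PBS 1 alone as vehicle or without the pair NP 2 and PBS 2. With library totals alone as the scaling, 2 were higher and 12 lower. Fos, a partner in the AP-1 dimer, averaged 48.2 ± 1.68 CPM in NP and 36.8 ± 1.72 CPM in PBS (log2 fold change 0.39, adjusted p = 0.000178). Its relative Fosl2 averaged 93.6 ± 1.6 CPM in NP and 120.3 ± 2.43 CPM in PBS (-0.36, adjusted p = 3.88e-05). The transcription factor genes Ets2 (-0.53, adjusted p = 9.97e-05) and Egr2 (-0.23, adjusted p = 0.000279) were lower. Egr1 averaged 10.6 ± 1.51 CPM in NP and 8.01 ± 0.887 CPM in PBS (0.41, adjusted p = 0.0237), and Jun averaged 366 ± 9.49 CPM in NP and 326 ± 26.6 CPM in PBS (0.17, adjusted p = 0.0291). The call of Egr1 did not survive leaving out PBS 1, PBS 3, NP 2 or NP 3, nor taking PBS 1 alone as vehicle (adjusted p = 0.0869), with adjusted p up to 0.106 and down to 0.00272 over its alternatives. That of Jun did not survive leaving out PBS 1, PBS 2, NP 1, NP 3 or the pair NP 2 and PBS 2, nor library totals alone as the scaling, with adjusted p up to 0.116 and down to 0.00448. Without PBS 2 the log2 fold change of Jun was 0.11. Myc had a log2 95% interval of -0.12 to 0.08. Etv5 and Ccnd1, chosen after their values were seen, are ERK-induced like Dusp6 and were lower too. Other ERK-induced genes, Fos, Egr1, Dusp5 and Spry2, were higher, so Etv5 and Ccnd1 do not stand for ERK-induced genes as a class. Etv5 had 31.7, 38.9 and 36.0 CPM in NP libraries, against 54.6, 50.1 and 50.1 CPM in PBS libraries (log2 fold change -0.55, adjusted p = 0.000302). Ccnd1, the cyclin D1 gene, averaged 157 ± 19.3 CPM in NP and 213 ± 11.4 CPM in PBS (-0.45, adjusted p = 0.00166).

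Of 20 further genes that restrain RAS and ERK, 4 were higher and 8 lower, and the list's median was -0.08 on the log2 scale. Without NP 1 or NP 3, 4 were lower, and without PBS 1, 5. The adaptor gene Dok2 averaged 47.9 ± 8.13 CPM in NP and 76.4 ± 3.97 CPM in PBS (log2 fold change -0.69, adjusted p = 0.000491). Ptpn6, the phosphatase SHP-1, averaged 196 ± 22 CPM in NP and 262 ± 8.15 CPM in PBS (-0.43, adjusted p = 0.001). The ubiquitin ligase gene Cblb was lower (-0.24, adjusted p = 0.000951), and Pebp1, the RAF inhibitor RKIP, was higher (0.23, adjusted p = 0.00144). Spred2 moved with Spred1 (-0.23, adjusted p = 0.017) and Spred3 moved with Spry2 (0.48, adjusted p = 0.0469). The call of Spred2 was lost without PBS 1, NP 1 or NP 3, without the low-count filter and with PBS 1 alone as vehicle (adjusted p = 0.0801), with adjusted p from 0.00141 to 0.116 over its alternatives. That of Spred3 was lost in 12 of 15 alternatives, among them each single library left out and PBS 1 alone as vehicle (adjusted p = 0.289), and its lowest adjusted p was 0.0141. Spry1 and Spry4 were at the limit of detection, with 5, 10 and 9 counts of Spry1 in NP libraries against 4, 1 and 6 in PBS libraries, and 4, 3 and 1 counts of Spry4 in NP libraries against 2, 19 and 10 in PBS libraries. They were not tested. The higher Spry4 counts came from PBS 2 and PBS 3 alone, the libraries set apart by olfactory and vomeronasal receptor transcripts.

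Of 13 other dual-specificity phosphatases, 4 were higher and 2 lower, with a median log2 fold change of 0.10. The higher ones were Dusp2, Dusp9 and, named after their values were seen, Dusp13 (0.92, adjusted p = 0.000211) and Dusp14 (0.97, adjusted p = 0.0151). Dusp14 had under 1 CPM in every library, and its call was lost without PBS 1, NP 1, NP 2 or NP 3, without the pair NP 2 and PBS 2, and with PBS 1 alone as vehicle (adjusted p = 0.0618), with adjusted p from 0.0110 to 0.114 over its alternatives. Dusp22 averaged 19.8 ± 0.586 CPM in NP and 25.4 ± 0.763 CPM in PBS (log2 fold change -0.36, adjusted p = 0.000257). Styx, a catalytically inactive relative, was lower by a small amount (-0.12, adjusted p = 0.0204), with adjusted p from 0.00758 to 0.151 over its alternatives, and was lost on leaving out PBS 1, PBS 2, NP 1, NP 2 or NP 3, without the pair NP 2 and PBS 2, without the low-count filter, and with PBS 1 alone as vehicle (adjusted p = 0.150). Dusp12 was not called (0.11, adjusted p = 0.129).

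Upstream, 5 of 13 receptor and ligand genes were higher and 4 lower, with a median log2 fold change of 0.11. Csf1r, the M-CSF receptor, had 484, 551 and 509 CPM in NP libraries, against 809.7, 753 and 762 CPM in PBS libraries (log2 fold change -0.59, adjusted p = 3.67e-05). Its ligand gene Csf1, named after its values were seen, averaged 54.9 ± 6.88 CPM in NP and 39.2 ± 0.641 CPM in PBS (0.48, adjusted p = 0.00121). Receptor and ligand thus moved in opposite directions. Csf2rb, the shared chain of the GM-CSF and IL-3 receptors, averaged 641 ± 58.2 CPM in NP and 379 ± 15.6 CPM in PBS (0.76, adjusted p = 3.16e-05). The lipopolysaccharide receptor gene Tlr4 averaged 84.0 ± 2.97 CPM in NP and 128 ± 2.17 CPM in PBS (-0.61, adjusted p = 7.79e-06), and the receptor tyrosine kinase gene Flt1 averaged 89.1 ± 3.66 CPM in NP and 123 ± 3.12 CPM in PBS (-0.47, adjusted p = 3.16e-05).

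**Figure D4:**
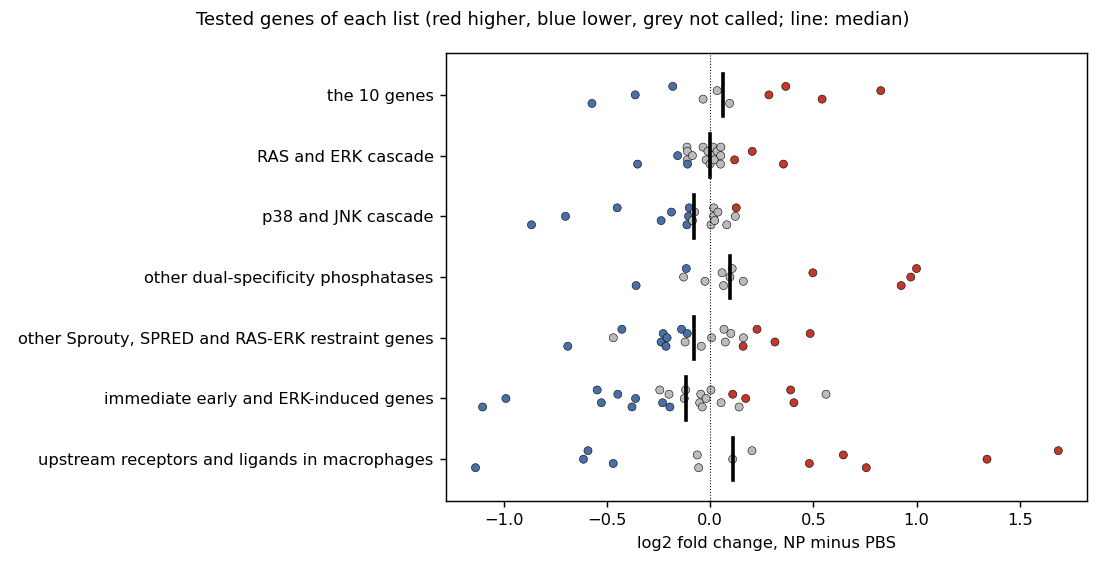
Log2 fold change of NP minus PBS for every tested gene of the 10 genes and the 6 lists, 1 point per gene, red where higher, blue where lower and grey where not called, with a line at each median. Medians lie between -0.12 (immediate early and ERK-induced genes) and 0.11 (upstream receptors and ligands), with called genes on both sides in every row.

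Across 16 alternatives in scaling, filtering, model and libraries, Dusp5, Dusp6, Spry2 and Spred1 kept their direction and their call in all 16. Their log2 fold changes ran from 0.75 to 0.88, from -0.72 to -0.46, from 0.50 to 0.62 and from -0.42 to -0.32, in that order. The pair NP 2 and PBS 2 differed in the same direction as the whole groups for each of the 7 called genes, with log2 differences of 1.00 for Dusp5, 0.42 for Spry2, 0.29 for Dusp10, 0.12 for Dusp16, -0.10 for Dusp7, -0.25 for Spred1 and -0.27 for Dusp6. The pair thus differed less than the groups for 6 of them and more for Dusp5.

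**Figure D5:**
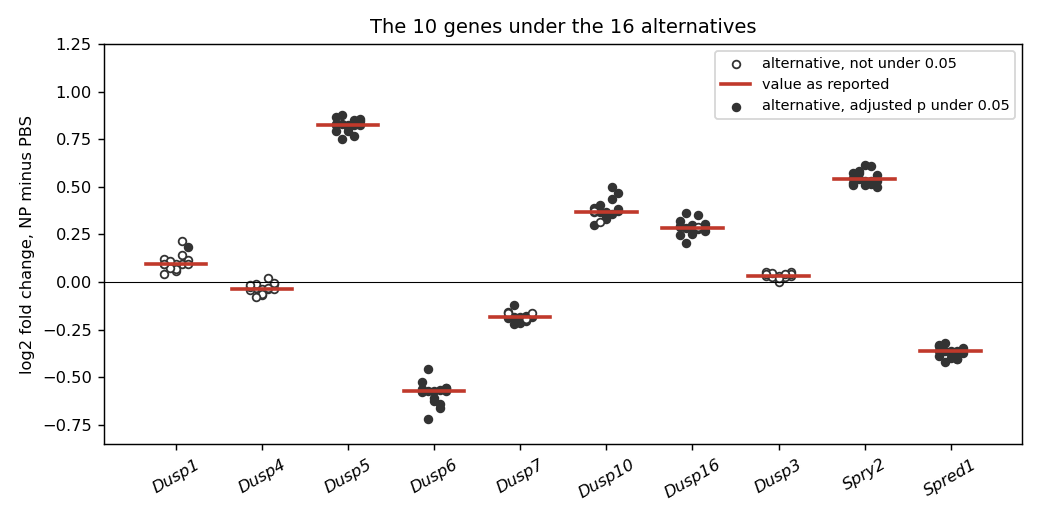
Log2 fold change of NP minus PBS for each of the 10 genes under 16 alternatives, with filled points where the adjusted p was under 0.05 and a line at the value reported. All points of Dusp5, Dusp6, Spry2 and Spred1 are filled, while Dusp7, Dusp10 and Dusp16 have 1 to 3 open points and Dusp1 has 1 filled point (0.18).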

How the data were processed

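Polyadenylated RNA of 6 libraries was read as 151 bp pairs. The authors deposited gene-level expected counts, whole numbers with no scaling for depth. Tools listed in the submitters' processing notes are RSEM 1.3.3, STAR 2.7.8a, cutadapt 2.3, MultiQC 1.7 and FastQC 0.11.8, with GRCm38 as build. Neither an annotation release nor a strand setting was stated in what was used here. RSEM divides reads shared between genes. Of the table's rows, 4 reporter rows were left out.

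The automatic unit check could not read the table's layout, so the quasi-likelihood count test planned first was not run and limma voom (limma 3.58.1, R 4.3.3), the stated substitute, was used: group alone, TMM factors of 0.979 to 1.02, genes with at least 0.171 CPM in at least 3 libraries and 15 counts in total, 0.5 added to each count, 4 residual degrees of freedom, Benjamini-Hochberg adjustment. All log2 fold changes are NP minus PBS. For single genes CPM uses library sizes over tested genes times these factors, also for the marker sums; the 3-count level and the olfactory and vomeronasal sums use plain totals. TPM uses exonic lengths of GENCODE M21, which covered 55141 gene rows. Intervals cover the spread between libraries, and the 3-count level covers counting error only. The fit was run on simulated counts with the same scatter for every gene and no outlying library. That run does not test the calls made on these libraries. Within groups, chi-square per gene between libraries was 6.08 to 19.7, so no library pair agreed within sampling noise.

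The 10 genes, the pathway lists and the markers were chosen with earlier results of these data known, so no test over a list is given. Every one of the 10 is named; of each list, the 4 genes of smallest p with at least 5 CPM, a set of main kinases, immediate early genes and close relatives are named, apart from some genes left unreported. Alternatives were other scalings, filters, limma-trend, sample weights, blocks and left-out libraries.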

Additional observations from a re-analysis of the deposited data

How the results depend on the processing

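Depth did not limit the 10 genes, each with at least 123 counts in every library. The count-model tests listed as alternatives were not run, because the automatic unit check could not read the table. With PBS 1 alone as vehicle 2972 genes were called (1197 higher, 1775 lower), and 34 of the pathway list genes; the cause was not tested. Leaving out 1 library at a time gave 4077 to 6466 genes called, 2102 to 2971 higher and 1975 to 3850 lower, 36 to 53 pathway list genes, 3 to 5 of the 10 genes higher and 2 to 3 lower. Without NP 3 the genes lower numbered 1975.

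Replicate numbers were not taken as pairs in the main fit. Deviations of same-numbered libraries from their group means correlated at -0.0899, -0.237 and -0.267 over 9928 genes. Those of other combinations ran from -0.187 (NP 3 with PBS 1) to 0.426 (NP 3 with PBS 2). Deviations within a group of 3 are not independent of each other, so these correlations cannot show whether libraries were paired. With the replicate block 5022 genes were called, and 4 of the 10 genes were higher and 3 lower. Under that block Map3k7 (adjusted p = 0.0584), Styx (0.0675) and Spred3 (0.0968) were not called, and 5 p38 and JNK cascade genes were lower. With the library number block 5671 were called, with the same numbers of 4 and 3.

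Directions that turned were all of genes not called. Dusp3 had -0.00084 with library totals alone, and Dusp4 ran from -0.0778 to 0.0222 with 1 library left out, positive without NP 2. Map2k1 had 0.00842 with no low-count filter and ran from -0.0251 to 0.0184 with 1 library left out. Myc had 7.98e-05 with no low-count filter, 0.00141 with sample weights and 0.0111 for PBS 1 alone as vehicle, and ran from -0.0353 to 0.0307. With no low-count filter 4 p38 and JNK cascade genes and 4 restraint genes were lower, and with sample weights 5 RAS and ERK cascade genes. With library totals alone 2280 genes were higher and 3653 lower. The median log2 fold change of all genes was -0.0377 with library totals alone and -0.0856 with no low-count filter. Of 590 values of 37 other named genes under alternatives, 527 kept direction and side of the threshold, 55 lost the call and 8 turned.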
